A study of Solanum tuberosum with 12 samples.

Results

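The comparison described here is that of cryopreserved potato shoot tips left in darkness with cryopreserved tips given cool white fluorescent light, across all genes with enough reads to be tested. It uses 3 dark and 3 cool white libraries, chosen by their labels, of the 12 libraries in the study. Potato (Solanum tuberosum) of the genotype Agrie Dzeltenie was grown in vitro, and tips were dissected from plants aged 3.5 weeks. Both groups were treated with a cryoprotectant of 10% dimethyl sulfoxide and 30% sucrose, frozen in droplets and held in liquid nitrogen for 1 h. After rewarming, both were kept without light for 48 h on a medium with zeatin riboside, gibberellic acid and indole acetic acid. They then spent a further 16 h either in the dark or under cool white light at 40 µmol per square metre per second, so that darkness was prolonged in one group and ended in the other. Each library pooled 10 shoot tips, and the labels do not say how many of the pooled tips had survived. The other 6 libraries, with 3 each, are tips that were cryopreserved and recovered under light-emitting diodes (LEDs, 90% red and 10% blue, at the same intensity) and tips that were never cryopreserved and were kept under cool white light. Whether the latter also spent 48 h in darkness is not given in the labels.

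Plants sense light through photoreceptors such as phytochromes, which absorb red and far-red light, and cryptochromes and phototropins, which absorb blue light. In seedlings of Arabidopsis kept in darkness, proteins that promote light responses are degraded and growth follows the dark programme, while light stabilizes such proteins and allows genes of chloroplast development and pigment synthesis to be transcribed. Light also drives photosynthesis, whose excess energy can form reactive oxygen species, and a dark period before light is a common step in cryopreservation protocols. The comparison asks how the transcripts of tips recovering from freezing differ when that dark period is followed by cool white light or is prolonged.

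The files give genes by identifiers of the type PGSC0003DMG and do not pair them with names. None of the 39027 identifiers matched the table of RefSeq genes used here, which is built on SolTub_3.0 (0 matches among 32873 genes), so genes are grouped below by direction, size and read level. For the same reason the labelled tissue could not be checked against shoot tip markers, gene lists of photosynthesis, light signalling, stress and defence could not be described, and no sequences are shown. Per library, 7422876, 7894692 and 6836559 reads were counted in darkness and 7537603, 7680222 and 8381673 under cool white light. Log2 expression correlated across genes at 0.979 to 0.983 among dark libraries, at 0.982 to 0.986 among cool white libraries and at 0.953 to 0.957 between the groups, where genes are not independent replicates.

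By number of genes called, darkness was marked mainly by lower relative transcript levels. Of the 19920 genes tested, 2079 were lower in darkness than under cool white light and 907 were higher, at a Benjamini-Hochberg adjusted p under 0.05 in the quasi-likelihood test of edgeR. These are 10.4% and 4.55% of the genes tested, and together 15% of them. The called decreases were also larger, with a median log2 fold change of -1.07, or 2.10-fold, against a median of 0.45, or 1.37-fold, for the called increases. Over all genes tested the median log2 fold change was 0.00, with the central 90% of genes lying between -1.31 and 0.50. The spread of all genes was thus wider on the side of lower levels in darkness. The median itself depends on scaling: it was -0.08 with library size only and 0.04 with DESeq2 size factors. In bulk tissue, fewer cells of a type and less RNA per cell cannot be told apart.

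The number of increases depended on scaling and on single libraries more than that of decreases. With library size as the only scaling, 2502 genes were lower and 478 higher. DESeq2 size factors moved the numbers the other way, to 1940 lower and 1259 higher, and upper quartile factors to 1991 and 1076. Without cool white replicate 1 or 2, or without dark replicate 1, the count of higher genes was 461, 426 and 478, and the count of all called genes was 1990 without cool white replicate 2.

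**Figure D1:**
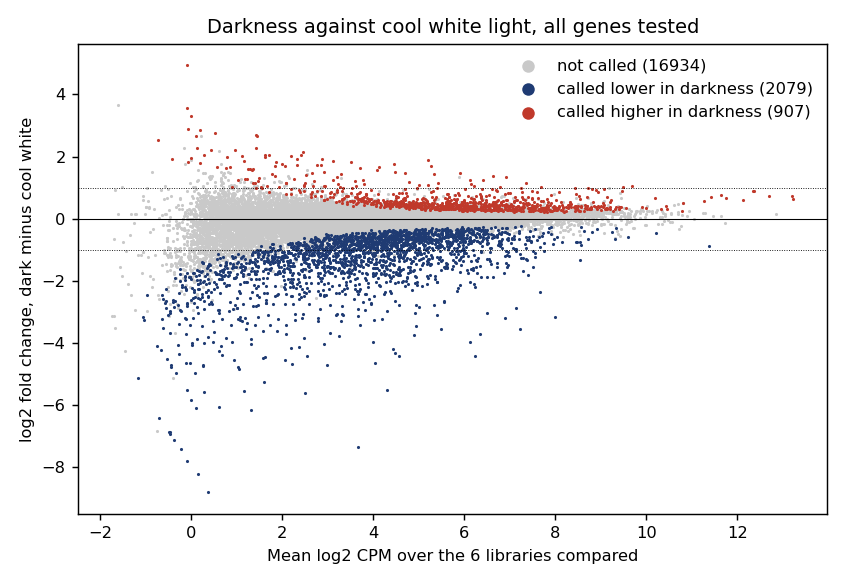
Each point is 1 of the 19920 genes tested, with the mean log2 CPM of the 6 libraries on the horizontal axis and the log2 fold change of darkness against cool white light on the vertical axis. CPM are read counts scaled to library size and normalized by the TMM method. Blue points are the 2079 genes called lower and red points the 907 called higher in darkness, and dotted lines mark a 2-fold difference. Values of genes with no read in 1 group depend on the prior count and are not bounds.

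The larger the difference, the more one-sided it was. Differences of at least 1.5-fold were seen in 1727 of the lower and 275 of the higher genes. At 2-fold the numbers were 1113 and 108, which are 5.59% and 0.542% of the genes tested, and at 4-fold they were 346 and 21. At 8-fold there were 130 lower and 3 higher genes, and at 16-fold 58 and 1. A decrease of 32-fold or more was estimated for 21 genes, and no called increase was that large. Seen within each direction, 53.5% of the lower genes but 11.9% of the higher genes differed at least 2-fold, and 69.7% of the higher genes differed by less than 1.5-fold.

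Some of the largest decreases were in genes with hardly a read in darkness. Of the 2079 lower genes, 10 were without reads in all 3 dark libraries and a further 36 had 1 to 3 reads over the 3 dark libraries. For the 10 genes, whose cool white means were between 0.536 and 7.02 CPM, the level in darkness was at least 3.85-fold to at least 50.4-fold lower, taken against a floor of 3 reads over the group (0.139 CPM). With the 10 genes at their bound, 345, 129, 52 and 13 genes were lower by at least 4-fold, 8-fold, 16-fold and 32-fold. The 36 genes with 1 to 3 reads kept their estimates in these counts. The median log2 fold change of the 2079 genes was -1.07 with these bounds as well.

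A test of the size itself gave the same asymmetry. By edgeR's glmTreat at a Benjamini-Hochberg adjusted p under 0.05, 353 genes were lower and 14 were higher in darkness by significantly more than 2-fold, which are 1.77% and 0.0703% of the genes tested.

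**Figure D2:**
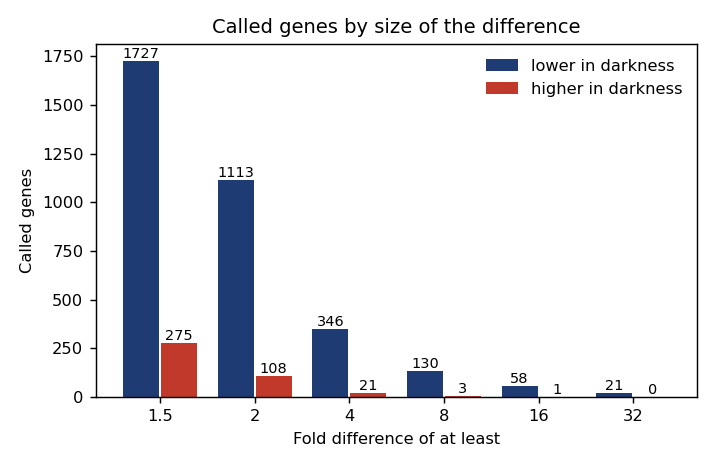
Bars give the number of called genes that differed at least by the fold on the horizontal axis, in blue for genes lower and in red for genes higher in darkness. Lower genes outnumber higher genes at every step, from 1727 against 275 at 1.5-fold to 58 against 1 at 16-fold.

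Genes with many reads behaved differently from the rest. Among the 2019 genes with a mean of 100 CPM or more over all 12 libraries, 294 (14.6%) were higher in darkness and 137 (6.79%) lower. In the 10472 genes between 10 and 100 CPM, the order was the opposite, with 504 higher (4.81%) and 1234 lower (11.8%). It was so too between 1 and 10 CPM, where 104 (1.46%) of 7107 genes were higher and 664 (9.34%) lower, and under 1 CPM, where 5 of 322 genes were higher and 44 lower. CPM is not divided by transcript length, so these classes rank genes by reads and not by transcript number. In all genes of a class, called or not, the median log2 fold change rose with level. It was -0.51 under 1 CPM, -0.13 between 1 and 10 CPM, 0.02 between 10 and 100 CPM and 0.14 at 100 CPM or more. The calls were not corrected for this shift.

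Precision differs between the classes, since the median standard error of the log2 fold change was 0.10 at 100 CPM or more, 0.13 between 10 and 100 CPM and 0.31 between 1 and 10 CPM. Of the higher genes with 100 CPM or more, 2.72% (8 genes) differed at least 2-fold, against 37.2% (51 genes) of the lower ones. The excess of higher genes in the top class also depended on scaling: DESeq2 size factors gave 431 higher and 123 lower genes and upper quartile factors 349 and 128, whereas library size alone gave 143 higher and 163 lower.

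**Figure D3:**
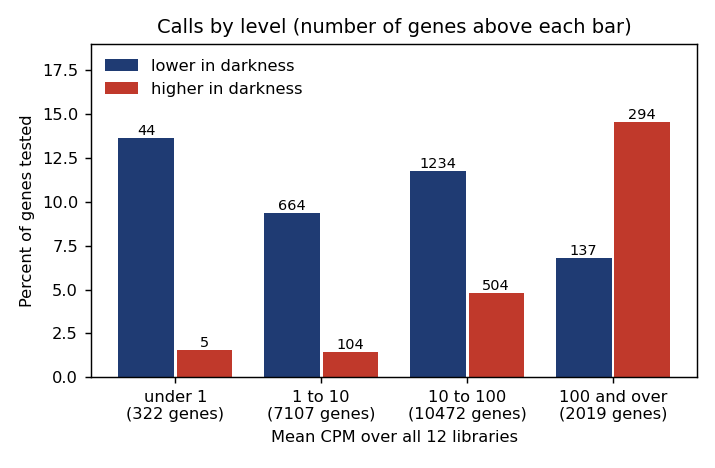
Bars give the percentage of genes called lower (blue) or higher (red) in darkness in 4 classes of mean CPM over all 12 libraries, with the number of called genes above each bar. In the class of 100 CPM and over, 14.6% were higher and 6.79% lower, an order that turned to 143 higher and 163 lower genes with library size as the only scaling, while lower genes prevail in the other 3 classes.

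Reads were redistributed accordingly. The 2079 lower genes took 9.30%, 9.66% and 9.55% of the reads of the 3 cool white libraries and 4.57%, 4.75% and 4.86% of those of the 3 dark libraries. The 907 higher genes took 13.5%, 13.3% and 13.4% under cool white light and 19.7%, 17.1% and 18.9% in darkness. Neither set overlapped between the groups, which follows from choosing the genes by the contrast of these groups. Dark replicate 2 had the smallest share of the higher genes in darkness.

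The libraries of the other 2 groups, which shared in the filter, scaling and estimate of spread but not in the contrast itself, lay between those of darkness and cool white light. For the 2079 lower genes, the share was 7.96%, 7.84% and 6.47% under LEDs and 8.42%, 8.56% and 8.05% in tips that were not cryopreserved, all above the dark and below the cool white libraries. LED replicate 3 was the lowest of these 6. For the 907 higher genes it was 15.6%, 15.8% and 16.5% under LEDs and 15.9%, 15.0% and 15.2% without cryopreservation, again between the 2 groups in every library. Choosing genes by the distance between darkness and cool white light favours such a place for other libraries. The read shares were not compared with those of genes chosen otherwise. On the TMM scale the lower genes summed to 92668 ± 2215 CPM under cool white light and 48667 ± 1841 CPM in darkness, and the higher genes to 130988 ± 676 and 191181 ± 16677 CPM (SD, n = 3).

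The summed reads of the 108 genes higher by at least 2-fold were 0.201% ± 0.0129 of the library without cryopreservation, 0.271% ± 0.0124 under cool white light, 0.344% ± 0.0166 for LEDs and 0.571% ± 0.0373 in darkness (SD, n = 3). The 4 groups of libraries did not overlap in this share, although the separation of darkness from cool white light was fixed by the choice of genes. A sum follows the members with most reads: the median level of the 108 genes was 2.70 CPM under cool white light and 3.07 CPM without cryopreservation, and the 21 genes at 4-fold or more took 0.00190% and 0.00418% of reads in these groups, the opposite order. For the 1113 genes lower by at least 2-fold the shares were 3.19% ± 0.145 without cryopreservation, 3.62% ± 0.120 under cool white light, 2.59% ± 0.453 for LEDs and 1.08% ± 0.0799 in darkness (SD, n = 3).

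**Figure D4:**
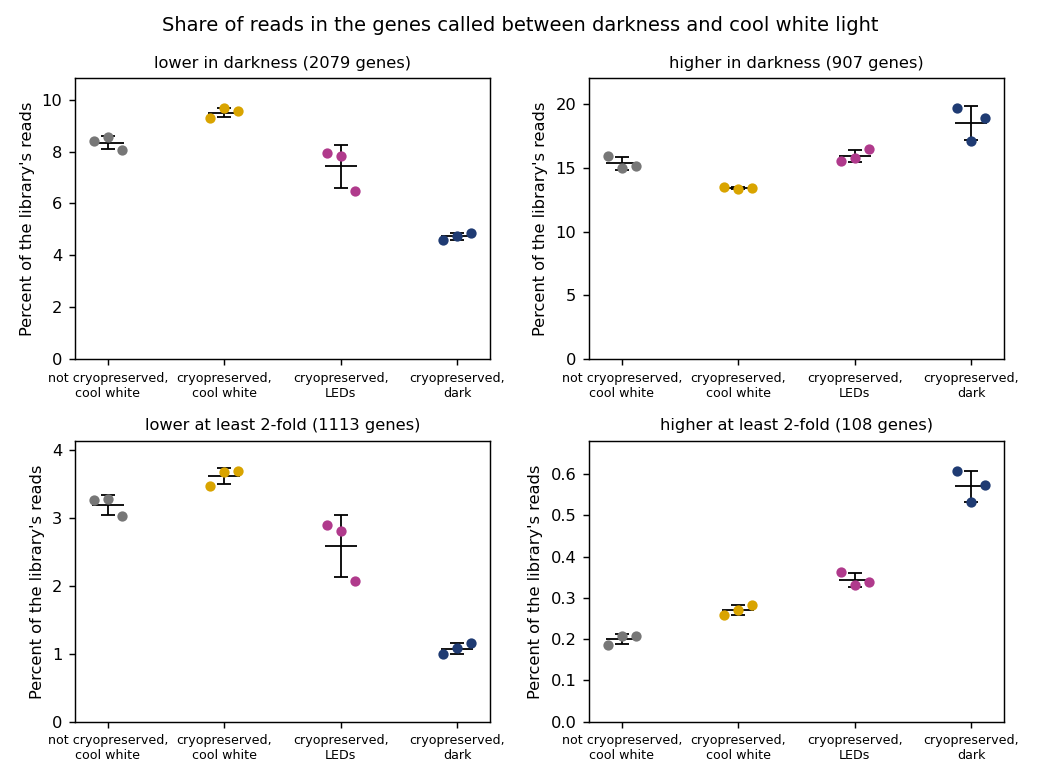
Points give, for each of the 12 libraries, the percentage of its reads in genes called lower or higher in darkness (top) and in those that differed at least 2-fold (bottom), with the mean and SD of each group as lines. For the 2079 lower genes the dark libraries sit between 4.57% and 4.86% and the cool white libraries between 9.30% and 9.66%, a gap fixed by the choice of genes. The other 6 libraries lie between them, a place that the choice of genes favours.

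The gain in darkness was concentrated in few genes and the loss was spread over many. Summed over the 907 higher genes, the difference of group means came to 60193 CPM, of which the 10 genes with the largest differences held 45.1% and the leading 16 genes 50% or more. Summed over the 2079 lower genes it came to 44001 CPM, of which the 10 leading genes held 11.9%, and 194 genes were needed to reach 50%. The 2 genes with the largest gains had near-proportional counts in all libraries, and whether they share reads, which would raise the concentration of the gain, was not tested.

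The 2 lower and 2 higher genes with the largest differences in mean CPM, among called genes whose libraries did not overlap, are given by identifier. PGSC0003DMG400000776 was at 4257, 3769 and 2934 CPM under cool white light and at 2262, 1540 and 2163 CPM in darkness. It had 1672, 1871 and 1511 CPM under LEDs and 1487, 1858 and 1624 CPM in tips that had not been cryopreserved. The 3 cool white libraries of cryopreserved tips were thus above all 9 other libraries, and the other 3 groups overlapped. The log2 fold change of darkness against cool white light was -0.88 (SE 0.16), and its adjusted p by the edgeR quasi-likelihood test was 0.00171.

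PGSC0003DMG400019584 followed another pattern. It was at 741, 771 and 781 CPM under cool white light and at 68.9, 92.2 and 97.3 CPM in darkness. Under LEDs it was at 531, 603 and 374 CPM, and without cryopreservation at 532, 472 and 492 CPM. Here the 3 dark libraries were below all 9 libraries from light, and the libraries of LEDs and of tips without cryopreservation overlapped. By the edgeR quasi-likelihood test the log2 fold change between darkness and cool white light was -3.15 (SE 0.17), an 8.88-fold difference (adjusted p = 3.48e-08). Both genes were thus lower in darkness than under cool white light, but in PGSC0003DMG400000776 it was the cool white libraries of cryopreserved tips that did not overlap with any others, and in PGSC0003DMG400019584 the dark libraries.

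The 2 genes with the largest gains had similar profiles. PGSC0003DMG402019042 was at 7618, 7271 and 7041 CPM under cool white light and at 14772, 8769 and 13294 CPM in darkness. PGSC0003DMG400042313 was at 7916, 7862 and 7404 CPM under cool white light and at 14140, 9322 and 12870 CPM in darkness. Dark replicate 2 was the lowest dark library for both. That no dark library overlaps with a cool white library in the 4 named genes was a condition of their choice. Under LEDs the former was at 10158, 11339 and 12042 CPM and the latter at 9838, 10805 and 9845 CPM, and both groups of LED libraries overlapped with darkness but not with cool white light after cryopreservation.

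Tips without cryopreservation had 11465, 8756 and 8225 CPM of PGSC0003DMG402019042 and 10306, 7969 and 7609 CPM of PGSC0003DMG400042313. The reads of the second gene were 0.817 to 1.08 times those of the first over the 12 libraries. How reads that map to several places were counted is not given in the sources used here, and the counts of these 2 identifiers may not be independent. Their log2 fold changes between darkness and cool white light were 0.75 (SE 0.17) and 0.65 (SE 0.14), and the edgeR quasi-likelihood test gave adjusted p of 0.00755 and 0.00732. Without dark replicate 1 the adjusted p of the edgeR test was 0.0442 and 0.0428, the highest over their alternatives. The lowest, 9.56e-05 and 8.22e-05, came from the DESeq2 test.

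**Figure D5:**
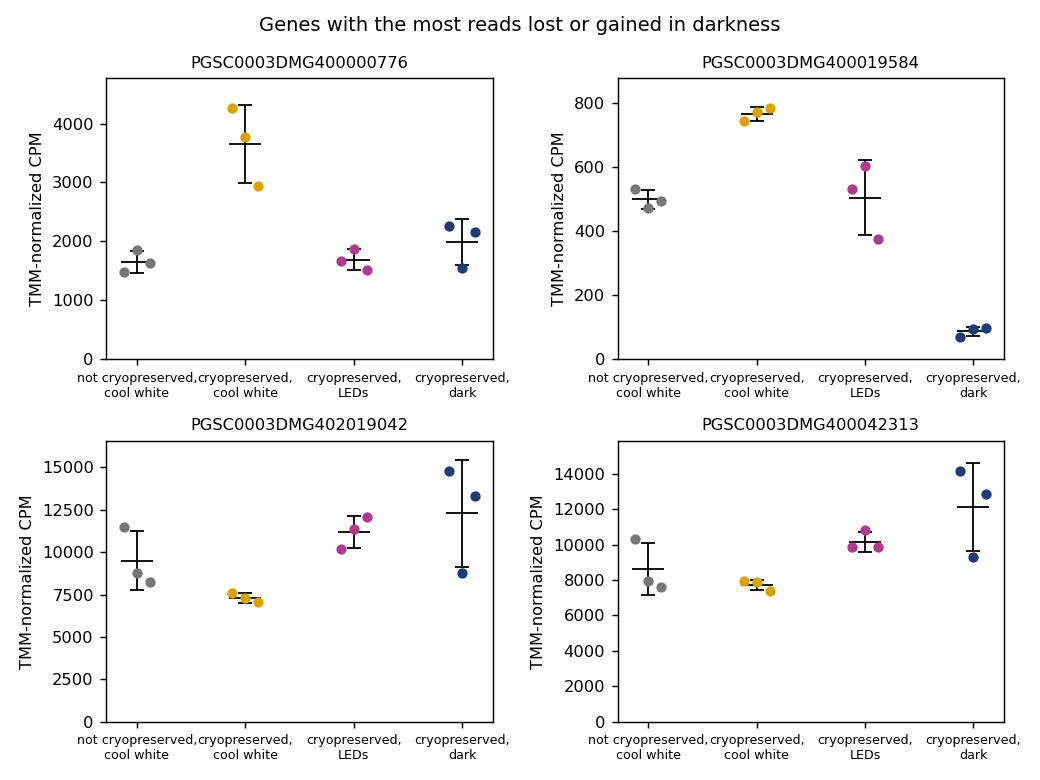
Points give the TMM-normalized CPM of 4 genes in each of the 12 libraries, with the mean and SD of each group as lines. PGSC0003DMG400000776 is highest in the cool white libraries of cryopreserved tips (2934 to 4257 CPM), PGSC0003DMG400019584 is lowest in the dark libraries (68.9 to 97.3 CPM), and the 2 genes in the lower panels have their lowest value in a cool white library of cryopreserved tips and their highest in a dark library.

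The lower and higher genes also moved across levels. Between cool white light and darkness, 235 lower genes went from 1 CPM or more to less, and 18 higher genes went the other way. At 10 CPM, 461 lower genes and 59 higher genes crossed, and at 100 CPM 117 and 81 did. The sets differ in size and in level, and crossings over all genes tested were not counted. In the full table of 39027 genes, 152 had no read in darkness and at least 1 in every cool white library, and 25 had none under cool white light and at least 1 in every dark library. Most of these had too few reads to be tested: the 152 genes held a median of 7 reads over the 3 cool white libraries, 13 of them were tested and 10 called, and of the 25 genes 1 was tested and 0 were called. The numbers were 140 and 26 at an equal depth of 6342324 reads. Of the 152 genes, 50 had reads in all 3 LED libraries and 52 in all 3 libraries without cryopreservation, while 20 and 33 had none there. With so few reads, presence varies by sampling, and other genes of similar read number were not compared.

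Median levels placed the called genes under LEDs and without cryopreservation closer to cool white light than to darkness when they were lower in darkness. The 2079 genes had a median of 9.76 CPM in darkness, 17.0 CPM under LEDs, 19.5 CPM without cryopreservation and 21.3 CPM under cool white light. For the 58 genes that were lower by at least 16-fold, the medians were 0.150, 3.14, 4.85 and 4.91 CPM in that order. The 907 higher genes had a median of 69.3 CPM in darkness, 55.0 CPM under LEDs, 51.0 CPM under cool white light and 46.9 CPM without cryopreservation. In the 21 genes higher by at least 4-fold the medians were 3.65, 1.24, 0.633 and 1.36 CPM for the same groups. The values for darkness and cool white light follow from the choice of genes.

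Gene by gene, the LED mean lay between the cool white and dark means in 1775 (85.4%) of the 2079 lower genes, beyond the cool white mean in 228 and beyond the dark mean in 76. Among all 9995 tested genes with a lower mean in darkness, 45.6% had an LED mean between the 2 others, a share that grows with the distance between them. Without cryopreservation, 912 of the 2079 genes (43.9%) had a mean above that of cool white light, 902 (43.4%) a mean between the 2 and 265 (12.7%) a mean below that of darkness. Over all 9995 tested genes with a lower dark mean these shares were 41.4%, 21.2% and 37.4%, so the share above cool white light was near that of all such genes. Of the 130 genes lower by at least 8-fold, none had an LED mean below the dark mean (0 of 130) and 2 had a non-cryopreserved mean below it. These genes were chosen for low levels in darkness, with a median of 0.486 CPM there, which leaves little room below. Among the 907 higher genes, 705 (77.7%) had an LED mean between those of cool white light and darkness, 162 a mean below that of cool white light and 40 a mean above that of darkness. For tips without cryopreservation these numbers were 275 (30.3%), 385 (42.4%) and 247 (27.2%). Over all 9925 tested genes with a higher dark mean, the shares in the same order were 39.8%, 34.0% and 26.2% for LEDs and 13.1%, 48.5% and 38.5% without cryopreservation.

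The LED and non-cryopreserved libraries give a contrast that shares no library with that of darkness and cool white light. They differ in cryopreservation, in light source and perhaps in the 48 h of darkness, which cannot be told apart here. Among all genes tested, 27.3% were higher and 23.3% lower under LEDs than without cryopreservation in the same edgeR fit at an adjusted p under 0.05, together 50.6%. Of the 2079 genes lower in darkness, 331 (15.9%) were higher and 758 (36.5%) lower under LEDs, and 990 did not pass the test. Their median log2 difference of LEDs from non-cryopreserved tips was -0.23, against 0.03 over all genes tested. The 1113 genes lower in darkness by at least 2-fold had 144 (12.9%) higher and 408 (36.7%) lower members in this contrast, with a median of -0.31. Together 49.6% of the 1113 were called, near the 50.6% of all genes tested.

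Of the 907 genes higher in darkness, 330 (36.4%) were higher and 246 (27.1%) lower under LEDs than without cryopreservation, with a median log2 difference of 0.11. Of the 907, 576 genes (63.5%) were called here in either direction, against 50.6% of all genes tested. Genes with more reads are tested with more precision, and shares at equal read level were not compared. Without cool white replicate 1 the genes called in both contrasts were 299 of 461 higher genes, and without cool white replicate 2 they were 265 of 426. Without dark replicate 1 they were 302 of 478, and with library size as the only scaling 313 of 478. The counts thus fell together with the set of higher genes. Shares over all genes tested were not computed for these alternatives. Among the 108 genes higher by at least 2-fold, 51 (47.2%) were higher and 14 (13.0%) lower under LEDs, with a median log2 difference of 0.78.

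Spread within the groups was somewhat wider in darkness. Over all genes tested, the median SD of log2 CPM among 3 libraries was 0.17 in darkness and 0.15 under cool white light, and in the 2079 lower genes it was 0.21 and 0.16. In the 907 higher genes it was 0.11 and 0.10. The SD of log2 CPM grows as reads become fewer, and the 2079 genes were chosen for lower levels in darkness (median 9.76 against 21.3 CPM). How much of their wider spread goes with this was not tested. The 2 groups of libraries were fully separated for 36.9% of all genes tested, for 2067 of the 2079 lower genes and for 899 of the 907 higher genes, which the calls themselves largely fix. Dark replicate 3 was the dark library nearest to cool white light in 42.7% of the lower and 42.0% of the higher genes, beside 37.3% and 38.8% of all tested genes with a lower or a higher dark mean. Cool white replicate 1 was the cool white library nearest to darkness in 47.1% of the lower genes, and cool white replicate 3 in 43.7% of the higher genes, beside 34.5% and 38.7% of all tested genes of the same direction.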

How the data were processed

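RNA with an integrity number above 7.4 was sequenced from stranded libraries, per the labels' protocols. The authors deposited raw read counts per gene, 1 file per library. The submitters' processing notes list, with no role or order, TopHat2 2.0.8b, Bowtie 1.1.1 and the tool featureCounts 1.5.0, besides FastQC and DESeq2. Genome build, strand setting and treatment of multiply mapped reads: not given in the sources used here. Counts of near-identical, overlapping or antisense genes are therefore uncertain.

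Groups and replicates were taken from the labels. Replicate pairs differed by more than counting noise (chi-square per degree of freedom 2.94 to 6.51). The labels call replicates biological without naming cultures. Of 39027 genes, filterByExpr (minimum count 10, total 15) kept 19920. In R 4.3.3, edgeR 4.0.16 was fitted to all 12 libraries with TMM scaling and 8 residual degrees of freedom (biological coefficient of variation 13.2%), with two-sided tests and Benjamini-Hochberg adjustment over all genes. Standard errors were derived from the F statistic and the log2 fold change. On simulated counts for darkness against cool white light (19644 genes), 67% of 2-fold and 91% of 4-fold changes were recovered, with 7.06% false calls.

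Alternatives were other scalings and filters, DESeq2 1.42.0, limma 3.58.1 voom, fitting 6 libraries, a replicate block, thinning and leaving out libraries. Genes were named by the largest difference of mean CPM among called genes without overlap and with mean log2 CPM no lower than 1, 2 per direction. The gene sets and this rule were chosen with earlier results of these data known. Floors and other limits from counts cover counting error only.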

Additional observations from a re-analysis of the deposited data

How the results depend on the processing

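Of 128 counts recomputed under the alternatives, 119 stayed within 1.5 times of the values above, and the 4 named genes kept direction and call in all 64 refits. The 907 genes higher in darkness became 478 with library size scaling and 426 to 709 when 1 library was left out, and those among them that differed between LEDs and non-cryopreserved tips became 313 and 265 to 449, from 576. With DESeq2 size factors 1259 genes were higher and 1940 lower, and with the DESeq2 test 1273 and 1907. Lower genes were 60.0% of all calls with the DESeq2 test and 84.0% with library size scaling, against 69.6% in the main fit. All called genes ranged from 1990 to 2459 without 1 library, from 2986. With library size scaling, 2079 of the 2079 lower and 478 of the 907 higher genes kept their call. No gene called in either direction was called in the opposite direction under an alternative (0 genes). With the replicate number as a block, 1955 genes were lower and 776 higher, and no call of a named gene changed. Deviations of same-numbered dark and cool white libraries from their group means correlated at 0.109, 0.0175 and -0.0357, not every library correlated best with its own number, and the numbers were not taken to pair the libraries. Fitting the 6 libraries alone gave 2415 lower and 1242 higher genes. Depth limits genes with few reads: under 1 CPM the median standard error of the log2 fold change was 0.63.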
